A study of Mus musculus with 8 samples.

Results

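Genes encoding enzymes that write or erase histone methylation, together with those encoding histone deacetylases, were examined for Runx1, Ezh2 and H3K27me3 in EML_C1 cells, a line of mouse blood progenitors kept in culture with stem cell factor. Members were all protein-coding genes whose symbol starts with Kmt, Kdm, Setd, Setdb, Hdac or Sirt followed by a digit, which gave 54 of 21887 protein-coding genes. The cells carry the strain label C57BL/6, and no treatment or genotype is labelled for any group. Chromatin immunoprecipitation followed by sequencing was done with 2 replicates each of Ezh2, H3K27me3 and Runx1, beside 1 input library for Ezh2 and Runx1 and 1 for H3K27me3. Ezh2 and Runx1 chromatin was fixed with DSG and then formaldehyde, and H3K27me3 chromatin with formaldehyde alone. The data come from one cell line, and the labels do not say that replicates were separate cultures, so the spread between them may be technical.

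Histone tails carry marks that are set and removed by opposing enzymes. Methylation of H3K4 is found at active promoters and enhancers and that of H3K36 along transcribed genes, whereas methylation of H3K9, H3K27 and H4K20 mostly goes with silent chromatin. Deacetylases remove acetyl groups and mostly work inside corepressor complexes. Ezh2 is the catalytic subunit of Polycomb repressive complex 2, which places H3K27me3, and Runx1 is a DNA-binding factor of blood progenitors. Members were therefore grouped by the residue each enzyme acts on. An activating enzyme adds a mark of active genes or removes a silencing one (17 genes), and a repressing enzyme does the reverse (24 genes). The remaining 13 genes were left unclassed because their activity on histones is absent or disputed or because they act mainly outside the nucleus. Kmt5a is also among these 13, although its product methylates H4K20.

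The RefSeq promoter table (GRCm38.p6, the same chromosome coordinates as mm10) held 43 of the 54 members, and in 25 of them a Runx1 summit of both replicates fell between 250 bases upstream and 50 bases downstream of a listed start. Not matched were Hdac1, Hdac3, Hdac10, Kdm2a, Kdm3b, Kdm4b, Kdm5a, Kdm6b, Kmt2b, Kmt2e and Setd1b. The promoters with the highest Runx1 fold among these 25 are shown because they carry the main result. Each is the 250 bases before the listed start, 5′ to 3′ on the gene's strand, in lower case, with the RUNX core words TGTGGT and TGCGGT and their reverse complements ACCACA and ACCGCA in capitals. Kdm1b (chr13:47043249-47043498, + strand) encodes an H3K4 demethylase and had the highest fold.
Kdm1b: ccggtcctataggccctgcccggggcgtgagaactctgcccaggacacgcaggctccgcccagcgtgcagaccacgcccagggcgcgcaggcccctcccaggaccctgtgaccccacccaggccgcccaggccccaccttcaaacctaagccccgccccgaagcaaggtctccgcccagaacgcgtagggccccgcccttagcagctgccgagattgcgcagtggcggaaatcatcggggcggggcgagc
Setd3 (chr12:108179242-108179491, - strand) encodes an actin histidine methyltransferase.
Setd3: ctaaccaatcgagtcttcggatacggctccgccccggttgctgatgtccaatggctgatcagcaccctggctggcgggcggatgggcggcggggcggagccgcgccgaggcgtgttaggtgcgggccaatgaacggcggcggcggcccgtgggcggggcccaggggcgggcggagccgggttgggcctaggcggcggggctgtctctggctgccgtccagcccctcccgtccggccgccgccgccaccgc
Hdac6 (chrX:7947890-7948139, - strand) encodes a largely cytoplasmic deacetylase that acts on tubulin.
Hdac6: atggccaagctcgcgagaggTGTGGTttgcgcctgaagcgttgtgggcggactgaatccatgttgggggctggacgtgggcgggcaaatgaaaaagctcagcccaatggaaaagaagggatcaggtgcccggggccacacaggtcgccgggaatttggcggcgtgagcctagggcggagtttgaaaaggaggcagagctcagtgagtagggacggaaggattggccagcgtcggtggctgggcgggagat
Kmt2a (chr9:44881290-44881539, - strand) encodes the H3K4 methyltransferase MLL1.
Kmt2a: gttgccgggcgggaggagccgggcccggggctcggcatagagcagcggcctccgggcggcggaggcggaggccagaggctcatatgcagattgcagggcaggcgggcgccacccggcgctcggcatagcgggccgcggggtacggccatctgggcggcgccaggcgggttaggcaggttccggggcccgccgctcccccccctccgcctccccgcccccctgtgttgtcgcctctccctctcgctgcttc
Kdm2b (chr5:122900351-122900600, - strand) encodes an H3K36 demethylase, and the promoter shown belongs to an internal start of the gene.
Kdm2b: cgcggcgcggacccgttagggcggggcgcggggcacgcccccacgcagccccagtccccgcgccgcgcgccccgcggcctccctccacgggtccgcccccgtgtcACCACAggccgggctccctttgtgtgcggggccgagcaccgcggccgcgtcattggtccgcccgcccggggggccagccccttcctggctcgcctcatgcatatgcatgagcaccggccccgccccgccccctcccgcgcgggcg
Hdac5 (chr11:102230173-102230422, - strand) encodes a class IIa deacetylase.
Hdac5: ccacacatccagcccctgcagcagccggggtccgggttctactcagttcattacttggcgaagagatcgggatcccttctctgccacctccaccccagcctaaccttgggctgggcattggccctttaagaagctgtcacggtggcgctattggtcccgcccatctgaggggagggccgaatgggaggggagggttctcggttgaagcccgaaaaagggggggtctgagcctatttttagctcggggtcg
Kmt5a (chr5:124439680-124439929, + strand) encodes the enzyme that places a single methyl group on H4K20.
Kmt5a: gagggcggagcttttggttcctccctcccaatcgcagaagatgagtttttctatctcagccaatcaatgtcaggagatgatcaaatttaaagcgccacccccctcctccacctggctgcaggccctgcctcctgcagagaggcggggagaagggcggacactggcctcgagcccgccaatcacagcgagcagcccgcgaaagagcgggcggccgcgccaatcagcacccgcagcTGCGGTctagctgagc
Sirt1 (chr10:63339036-63339285, - strand) encodes a nuclear NAD-dependent deacetylase.
Sirt1: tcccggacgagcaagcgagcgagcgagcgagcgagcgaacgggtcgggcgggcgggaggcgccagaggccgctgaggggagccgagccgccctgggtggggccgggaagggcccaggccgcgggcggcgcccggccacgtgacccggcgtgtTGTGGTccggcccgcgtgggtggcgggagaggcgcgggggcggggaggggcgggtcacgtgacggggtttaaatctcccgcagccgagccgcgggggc

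Of these 8 promoters, 4 held a RUNX word in the stretch shown: Hdac6, Kdm2b, Kmt5a and Sirt1. In Sirt1 the word lay 2 and 33 bp from the Runx1 summits of replicates 1 and 2, in Kdm2b 40 and 34 bp, in Hdac6 81 and 89 bp, and in Kmt5a 124 bp from both. Kdm1b, with the highest Runx1 fold, held none of the 4 words there. Over whole promoter windows, 10 of 30 member promoters with a Runx1 summit held at least 1 of the words (33.3%). The share was 21.6% of all 21263 promoters of protein-coding genes, 25% of the 5643 with a Runx1 summit and 20.3% of those without. The 30 promoters belong to 25 members, so shares are by promoter and not by gene. Kdm2b and Kmt5a each gave more than 1 of the 10, and overlapping windows of the internal Kdm2b starts hold the same word. The pair TGTGGT and ACCACA was in 13.6% of all promoters with a summit and 15.5% of those without, and in 16.7% of member promoters with one. The pair TGCGGT and ACCGCA, added after the data were examined, was in 12.6, 5.56 and 16.7% of these. A match describes letters only and is not a binding site.

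For contrast, 2 promoters are shown where Ezh2 and H3K27me3 were found, chosen after their values were seen. Hdac11 (chr6:91156565-91156814, + strand), the class IV deacetylase gene, had Ezh2 and H3K27me3 and no Runx1 within 1 kb of its ends.
Hdac11: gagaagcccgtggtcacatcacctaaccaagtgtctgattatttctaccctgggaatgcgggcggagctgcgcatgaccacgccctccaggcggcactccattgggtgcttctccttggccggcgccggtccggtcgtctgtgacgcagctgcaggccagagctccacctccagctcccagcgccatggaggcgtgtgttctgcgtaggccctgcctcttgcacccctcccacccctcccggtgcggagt
Kdm7a (chr6:39206774-39207023, - strand), a gene for a demethylase of H3K9 and H3K27, had all 3.
Kdm7a: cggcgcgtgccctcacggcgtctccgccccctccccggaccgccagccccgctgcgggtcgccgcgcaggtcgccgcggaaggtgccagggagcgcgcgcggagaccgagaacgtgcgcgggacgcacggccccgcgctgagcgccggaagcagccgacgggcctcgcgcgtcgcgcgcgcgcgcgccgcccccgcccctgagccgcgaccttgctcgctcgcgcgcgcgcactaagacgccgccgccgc
The 300-base window of Kdm7a, from 250 bases before to 50 after the start, held 65 CG dinucleotides and that of Hdac11 held 22. The median was 22 over the 59 member promoters and 13 over all promoters. Neither stretch holds any of the 4 RUNX words.

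Peaks were those the authors called in each library, and the fold enrichment given below is their peak caller's ratio of a peak over background. The lists held between 64059 and 220455 peaks and are permissive, with the weakest peaks at a p between 0.0493 and 0.0499. In replicates 1 and 2, 60 and 69.3% of Runx1 peaks, 20.2 and 14.1% of Ezh2 peaks and 6.13 and 1.34% of H3K27me3 peaks had a q of at most 0.01. The number of reads per library is unknown. Since H3K27me3 was called as broad peaks with its own input, its folds cannot be set against those of the other antibodies. As a check of the label, 9 of 10 progenitor genes such as Kit and Spi1 carried Runx1 and 0 carried H3K27me3, while 0 of 10 genes of other tissues such as Myod1 carried Runx1 and 7 carried H3K27me3. Peak lists hold no expression values.

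Runx1 was found at nearly all of these enzyme genes. A gene was called when the window of 1 kb either side of one of its 2 ends held a peak of both replicates, and 47 of 54 members (87%) were called for Runx1, where the same rule called 45.3% of all protein-coding genes. For Ezh2 the count was 2 of 54 (3.7%) against 18.4% of all genes, and for H3K27me3 it was 8 of 54 (14.8%) against 30.6%. In all, 42 members (77.8%) carried Runx1 alone, against 38.6% of all genes, and 4 carried no antibody (7.41% against 28.7%). With a q of at most 0.01 the same 47 members remained called for Runx1, against 42.3% of all genes. No test was run on these counts, because genes are not replicates and the members were chosen with earlier results known.

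The replicates of Runx1 gave close folds at the members. In 46 of the 47 called genes the folds of the replicates differed by under 1.5 times, and the exception was Sirt4, at 5.19 and 7.95. The median fold of the called members was 9.54, beside 7.50 over all 9910 called genes, with a range from 2.48 at Hdac10 to 118 at Kdm1b. A fold of at least 10 in both replicates was found at 21 of 54 members (38.9%) and at 16.2% of all genes, and one of at least 20 at 10 members (18.5%) and at 7.82% of all genes.

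**Figure D1:**
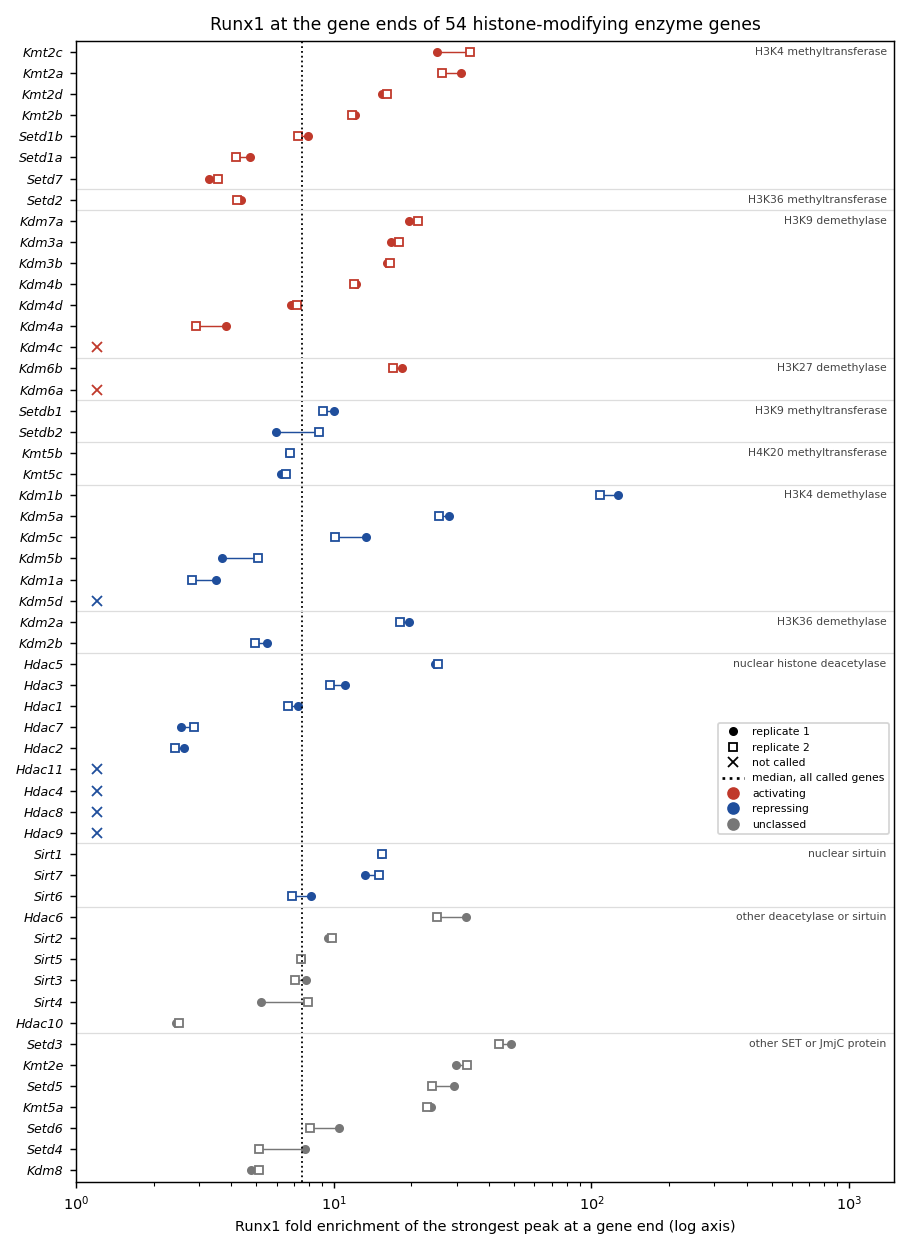
Runx1 fold enrichment of the strongest peak at a gene end for each of the 54 members (log axis), with 1 row per gene, grouped by the residue the enzyme acts on. Filled circles are replicate 1, open squares replicate 2, crosses genes without a call and the dotted line the median of all called genes (7.50). Kdm1b stands apart at 127 and 108, and the 7 crosses include 4 of the 9 nuclear deacetylase genes.

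Among activating enzymes, all 7 H3K4 methyltransferase genes carried Runx1 and none carried Ezh2 or H3K27me3. Kmt2c, whose product works at enhancers, had Runx1 folds of 25.1 and 33.7 (mean 29.4 ± 6.10, SD, n = 2), and Kmt2a, a gene of blood stem cells that is rearranged in leukaemia, had 31.1 and 26.3 (28.7 ± 3.45). These were the highest of the family, and their values overlap. Kmt2d, the paralogue of Kmt2c, had 15.4 and 16.1 (15.7 ± 0.477) at its far end, a peak that also reaches an end of Prkag1, and 3.41 and 2.996 at its listed start 2.87 kb inside the gene. Kmt2b, the paralogue of Kmt2a, had 12.1 and 11.7 (11.9 ± 0.245) and lay in both replicates below Kmt2a. The other H3K4 methyltransferase genes were lower, with 7.90 and 7.24 at Setd1b, 4.74 and 4.16 at Setd1a and 3.28 and 3.56 at Setd7. The H3K36 methyltransferase gene Setd2 had 4.36 and 4.21.

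The H3K9 demethylase genes spanned a wide range of Runx1. Kdm7a was highest with 19.7 and 21.3 (20.5 ± 1.15), followed by Kdm3a with 16.7 and 17.9 (17.3 ± 0.881) and its paralogue Kdm3b with 16.0 and 16.5 (16.3 ± 0.341). The values of this pair did not overlap but all lay between 16.0 and 17.9. The Kdm4 genes, several of whose products also demethylate H3K36, went from 12.2 and 11.9 at Kdm4b through 6.84 and 7.17 at Kdm4d to 3.80 and 2.93 at Kdm4a, and Kdm4c had no call at a gene end. With a window of 2 kb the mean at Kdm4a was 10.2 in place of 3.36, which is above Kdm4d. Of the H3K27 demethylase genes, which undo the Polycomb mark, Kdm6b had 18.3 and 17.0 (17.6 ± 0.943). Kdm6a on the X chromosome had no Runx1 peak within 1 kb of its ends, while a listed start 1713 bp inside had 3.99 and 2.72.

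Among repressing enzymes, the H3K4 demethylases held both the strongest and some of the weakest Runx1 peaks. Kdm1b had folds of 127 and 108 (118 ± 13.6, SD, n = 2), rank 56 of the 9910 genes called for Runx1 and 2.55 times the next member. Its summits lay at -84 and -78 bp from the start that ends the stretch shown above (negative is upstream). The peak also reaches an end of the neighbouring gene Tpmt, so it cannot be given to Kdm1b alone. Its paralogue Kdm1a, known as LSD1 and a partner of the blood repressors Gfi1 and Gfi1b, had only 3.47 and 2.82 (3.15 ± 0.461). Kdm5a had 28.0 and 25.6 (26.8 ± 1.66), Kdm5c on the X chromosome 13.4 and 10.1, Kdm5b 3.68 and 5.08, and Kdm5d on the Y chromosome no peak. Of the H3K36 demethylases, Kdm2a had 19.6 and 18.03 (18.8 ± 1.08) and Kdm2b 5.49 and 4.95 at its gene end.

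Genes for methyltransferases of silent chromatin had moderate Runx1 folds and no Polycomb call. The H3K9 enzymes Setdb1 and Setdb2 had 9.99 and 9.09, and 5.96 and 8.79. The H4K20 enzymes Kmt5b and Kmt5c had 6.68 and 6.74, and 6.25 and 6.501. In both replicates Setdb1 lay above Setdb2 and Kmt5b above Kmt5c.

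Among the nuclear deacetylase genes, 5 of 9 carried Runx1 (55.6%), against 45.3% of all genes. Hdac5 had 24.8 and 25.3 (25.0 ± 0.344), far above the others. Hdac3, the catalytic subunit of the NCoR complex, had 11.1 and 9.62 (mean 10.3, and 18.2 with a window of 2 kb), and Hdac1, of the Sin3, NuRD and CoREST complexes, had 7.24 and 6.61. Hdac2, the close paralogue of Hdac1, had 2.62 and 2.41, so both replicates lay below those of Hdac1. Hdac7 had 2.54 and 2.86 and was the only one of the 47 to lose its Runx1 call with a q of at most 1e-05, where 39% of all genes were called. Hdac4, Hdac8, Hdac9 and Hdac11 were not called. All 7 sirtuin genes carried Runx1 and neither Ezh2 nor H3K27me3. The nuclear Sirt1 had 15.2 and 15.4, Sirt7 13.2 and 14.9 at its far end, a peak that also reaches Pcyt2, against 4.06 and 3.28 at its start, and Sirt6 8.18 and 6.89, and Sirt2 to Sirt5, whose products work in cytoplasm or mitochondria, had means between 6.57 and 9.66.

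All 13 unclassed genes carried Runx1. Setd3 had 48.7 and 43.7 (46.2 ± 3.48), Kmt2e, an MLL family member without known methyltransferase activity, had 29.9 and 33.0 (31.4 ± 2.16), and Hdac6 had 32.6 and 25.2 (28.9 ± 5.27). Setd5 had 29.2 and 24.1 (26.7 ± 3.56) and Kmt5a 23.9 and 23.1 (23.5 ± 0.569). These were 5 of the 10 highest members. Setd6, whose product methylates the NF-kB subunit RelA, had 10.5 and 8.06, Setd4 7.69 and 5.14 and Kdm8 4.76 and 5.11. Setd3 shares its peak with an end of Ccnk. The lowest was Hdac10, a polyamine deacetylase gene, with 2.45 and 2.51 at a peak shared with Tubgcp6. In all, the peak of 17 of the 47 called members also reached within 1 kb of an end of another protein-coding gene, and that of 30 reached none. This share was not computed over all genes called for Runx1, so it is not shown to be particular to the members.

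Ezh2 and its mark were rare at the enzyme genes, and 4 of the 8 genes with the mark encode nuclear deacetylases. That is 4 of 9 genes of that family (44.4%), beside 30.6% of all genes. Hdac11 had Ezh2 folds of 4.41 and 2.93 (3.67 ± 1.05, SD, n = 2) and H3K27me3 folds of 2.73 and 2.36 (2.55 ± 0.261). No Runx1 peak lay within 1 kb of its ends, while a Runx1 region 1.97 kb inside its far end had 2.95 and 3.63. Only Hdac11 and Kdm7a had both Ezh2 and the mark, 3.7% of members against 16.3% of all genes. H3K27me3 peaks covered 65.7 and 47.4% of the gene's span and Ezh2 peaks 36.02 and 22.4%, more than at any other member called for the mark. Within 1 kb of the start, the strongest Ezh2 peak differed between replicates, with summits 2 and 1207 bp inside the start. Further inside the gene, 2.00 kb from that end, both replicates shared a stronger Ezh2 region at 4.92 and 4.37 (4.64 ± 0.391). Hdac9, a class IIa deacetylase gene of 869.5 kb, had H3K27me3 at 2.27 and 2.82 (2.55 ± 0.389) at its start. H3K27me3 peaks covered 13.1 and 5.73% of its span, which held 55 H3K27me3 and 28 Ezh2 regions found in both replicates. Spans of all protein-coding genes held 4.68 H3K27me3 and 3.15 Ezh2 regions per 100 kb. The Hdac9 regions were not spread over the whole gene, which runs from 34047580 to 34917095 on chromosome 12. All lay between positions 34444652 and 34896482. The part of gene length in these counts was not tested.

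The other class IIa genes with the mark carried it more weakly. Hdac4 had H3K27me3 at 2.16 and 2.09 (2.13 ± 0.0466), and Hdac7 had 2.05 and 1.96 (2.01 ± 0.0654). Their paralogue Hdac5 had no H3K27me3 peak at its ends. In this subfamily, Hdac5 thus had Runx1 alone, Hdac7 a weak Runx1 peak with the mark, and Hdac4 and Hdac9 the mark without Runx1 at a gene end.

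Kdm7a was the only member with all 3 antibodies, a combination found at 3.76% of all genes. Its Ezh2 folds were 3.35 and 2.27 (2.81 ± 0.766) and its H3K27me3 folds 2.64 and 1.98 (2.31 ± 0.466). The Ezh2 summits lay at -354 and -338 bp from the start, and the H3K27me3 peaks, of 521 and 260 bp, covered the same stretch and none of the gene. The strongest Runx1 summits lay 1397 and 1403 bp inside the gene, and weaker ones, at 5.27 and 6.68, lay at -243 and -203 bp. Inside the gene, an Ezh2 region found in both replicates, at 3.10 and 2.24 (2.67 ± 0.608), lay within the strong Runx1 peak. The H3K27me3 peaks did not overlap that Runx1 peak. The weaker Runx1 summits at -243 and -203 bp, however, lay within the H3K27me3 and Ezh2 peaks of the same replicate number upstream of the start.

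Runx1 and the mark were both called at 5 members (9.26% against 5.2% of all genes), which were Kdm7a, Hdac7, Kdm4d, Kdm6b and Setd4. At the last 3 the strongest peaks of Runx1 and of the mark lay apart. Kdm4d had H3K27me3 at 2.05 and 2.36 at its far end and Runx1 at its start. Away from its ends it also held 4 Ezh2 regions and 5 H3K27me3 regions, the strongest of the latter at 3.08 and 2.45. H3K27me3 peaks covered 35.03 and 16.1% of its span. The Kdm6b peaks, at 2.11 and 1.94, lay outside the gene on the side of Dnah2. Those of Setd4, at 1.93 and 2.09, lay outside it on the side of Cbr1. None of the 8 H3K27me3 calls remained with a q of at most 0.01, where 3.02% of all genes were called. Both Ezh2 calls remained with a q of at most 0.01, beside 8.08% of all genes, and neither at 1e-05, beside 4.58%.

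**Figure D2:**
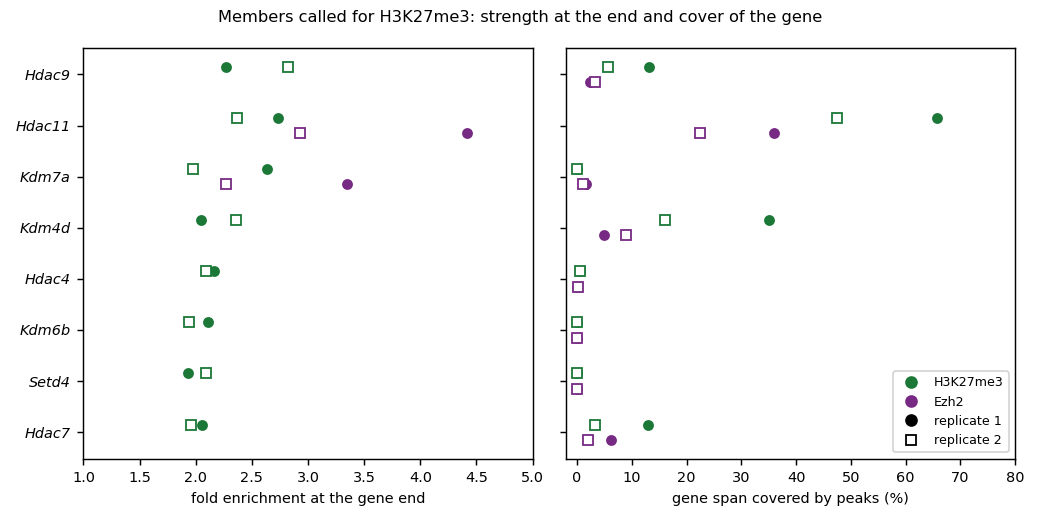
The 8 members called for H3K27me3, with fold enrichment at the gene end (left) and the share of the gene span covered by peaks (right, %). Green marks H3K27me3 and purple Ezh2, with filled circles for replicate 1 and open squares for replicate 2. Hdac11 has the widest cover, 65.7 and 47.4% for H3K27me3, and no H3K27me3 fold exceeds 2.82.

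Both activating and repressing enzyme genes mostly carried Runx1 and seldom Ezh2 or H3K27me3. Runx1 was called at 15 of 17 activating genes (88.2%) and 19 of 24 repressing genes (79.2%), a difference of 9.07 percentage points. With all Hdac and Sirt genes counted as repressing it was 4.9 points, and with listed starts in place of gene ends it was 20 points, on 12 of 12 against 16 of 20 genes, beside 46.1% of all genes with a listed start. The median Runx1 fold of called genes was 12.1 in the activating and 7.54 in the repressing class. Ezh2 was called at 1 of 17 and 1 of 24, and H3K27me3 at 3 of 17 (17.6%) and 4 of 24 (16.7%), a difference of 0.98 points that changed sign with the window. Of the 5 repressing genes without Runx1, 4 encode nuclear deacetylases and the other is Kdm5d. The nuclear deacetylase genes were still called at 55.6%, beside 45.3% of all genes. The activating genes without Runx1 were Kdm4c and Kdm6a.

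**Figure D3:**
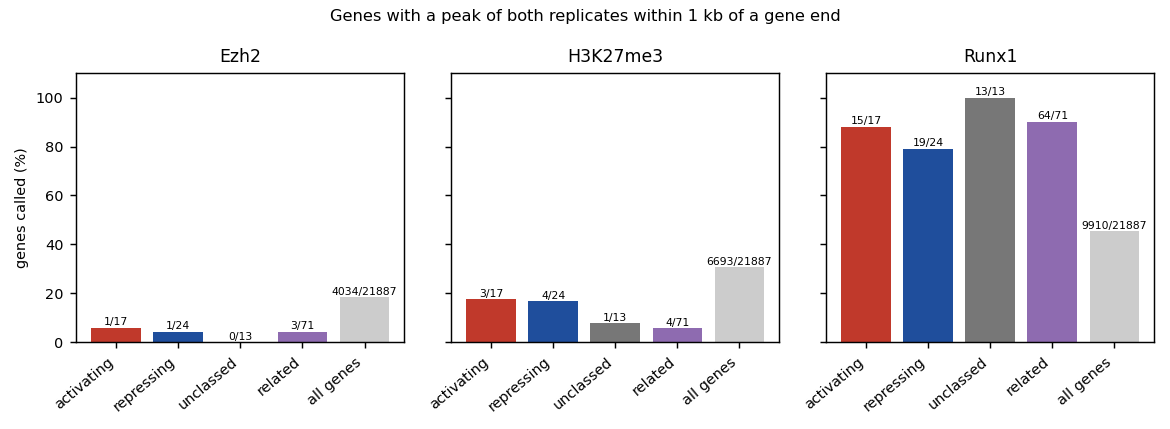
Share of genes (%) with a peak of both replicates within 1 kb of a gene end, for each antibody, in activating, repressing and unclassed members, in 71 related chromatin genes and in all protein-coding genes. Numbers over the bars are genes called over genes in the group. All Runx1 bars of the enzyme groups exceed that of all genes, and all their Ezh2 and H3K27me3 bars lie under it.

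Gene ends miss some starts, and 3 of the 7 members without a Runx1 call had Runx1 at a start listed inside the gene. Hdac4 had 11.3 and 8.51 (9.90 ± 1.97) at a start 15.4 kb inside its outer end, where no H3K27me3 or Ezh2 peak was found. Kdm4c had 9.55 and 8.03 at a start 9.38 kb inside and none at its outer start. With ends and listed starts together, 50 of 54 members (92.6%) had Runx1, against 47.9% of all genes. The members without it were Hdac8, Hdac9, Hdac11 and Kdm5d. Setd5 went the other way, with Runx1 at its outer end and none at its listed start 27.7 kb inside.

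At Kdm2b and Kmt5a the level of Runx1 differed between starts, whereas the nearby starts of Setd3, Kmt5b, Sirt3 and Sirt6 shared a peak. Kdm2b had 27.9 and 25.7 (26.8 ± 1.54) at its internal starts 88.9 kb inside the gene, about 5 times the 5.49 and 4.95 (5.22 ± 0.384) at its outer starts. The folds of both replicates were higher at the internal starts. Kmt5a was the reverse, with 23.9 and 23.1 at its outer start and 6.82 and 6.63 at the peak shared by its inner starts. Hdac7 had weak peaks of all 3 antibodies at inner starts 12.7 kb inside, with Ezh2 at 3.601 and 2.15, H3K27me3 at 2.199 and 1.86 and Runx1 at 1.67 and 2.56. Hdac9 had Ezh2 at 2.59 and 2.15 at a start 388 kb inside.

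**Figure D4:**
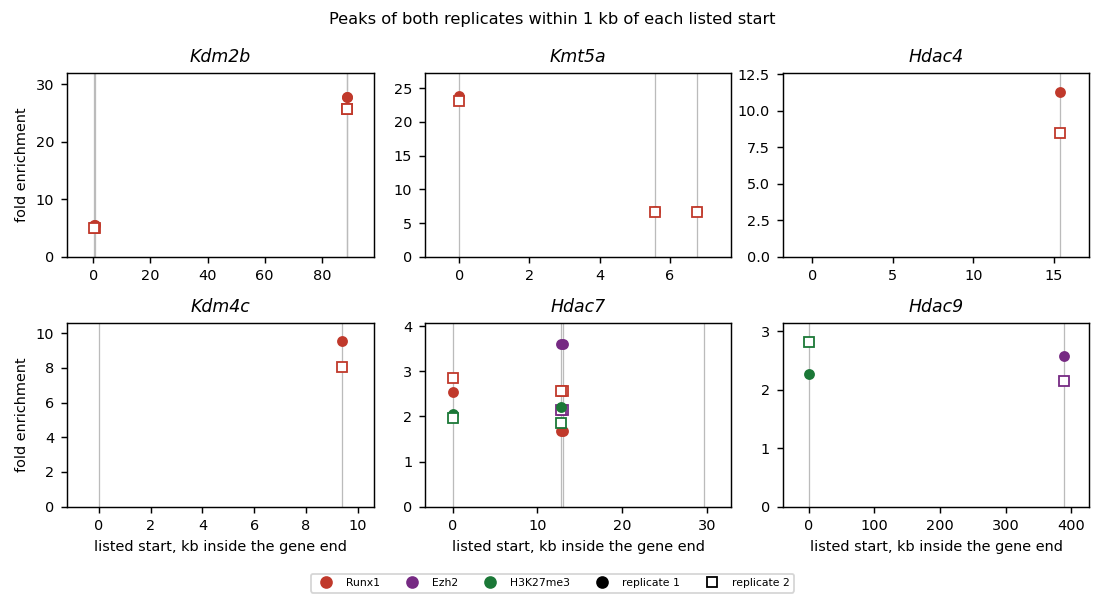
Fold enrichment (y axis) of peaks found in both replicates within 1 kb of each RefSeq start (grey lines), against the distance of that start inside the gene's outer end (x axis, kb), for 6 members. Colours are antibodies, filled circles replicate 1 and open squares replicate 2, and starts closer than 2 kb can share a peak. Kdm2b is high at its internal starts (27.9 and 25.7) and Kmt5a at its outer start (23.9 and 23.1).

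At the members, Runx1 summits lay mostly upstream of the nearest listed start, a share not computed over all genes. For 34 called members whose strongest peak lay at the start end of the gene, both summits were upstream of the nearest listed start in 26, downstream in 7 and split in 1, and both were within 250 bp of it in 22. Of the 36 called members with a listed start, 35 (97.2%) were called at the end that holds the start and 4 (11.1%) at the far end, against 93.8 and 18.6% of all genes called for Runx1. The median distance was 157 bp, beside 108 bp over all genes called for Runx1. The distance was within 250 bp in 66.7% of these 36 members and in 67.9% of all 8072 called genes with a listed start. Nearness to a start was thus not particular to the members.

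**Figure D5:**
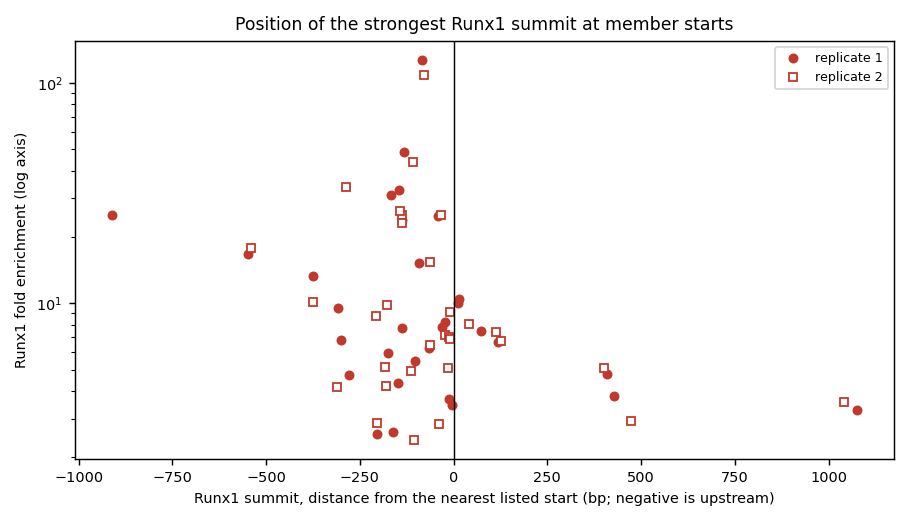
Distance of the strongest Runx1 summit from the nearest listed start (x axis, bp, negative upstream) against its fold enrichment (y axis, log scale) in 31 members, with filled circles for replicate 1 and open squares for replicate 2. Kdm7a, Setd5 and Sirt4, with summits beyond 1200 bp, are left out. The highest points, those of Kdm1b, lie at -84 and -78 bp.

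Promoters rich in CG carry Runx1 more often in this line, and members have such promoters. Each gene took the highest count of CG dinucleotides among its listed promoter windows, with a median of 15 over genes. Above that median, Runx1 was called at a gene end in 29 of 33 members (87.9%) and 70.8% of all genes. At or below that median it was called at 7 of 10 members (70%) and 23.5% of all genes. The 7 include Setd5, whose listed promoter, with 1 CG, lies 27.7 kb inside the called end. They also include Sirt4, whose listed start lies 5.97 kb inside. Apart from Setd5, the called members of this side had 13 to 15 CG, close to the split. Hdac9 and Hdac8, with 3 and 6 CG, were not called, nor was Kdm5d with 15. The share of members was above that of all genes on both sides, but CG counts were not matched within a side. The part of CG content in the count of Runx1 calls was not tested.

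Genes of related function also mostly carried Runx1. Of 71 related chromatin genes, 64 had Runx1 (90.1%), 3 had Ezh2 (4.23%) and 4 had H3K27me3 (5.63%). The shares over all protein-coding genes were 45.3, 18.4 and 30.6%. Runx1 was called at 25 of 26 partners of deacetylase complexes, 11 of 12 subunits of the H3K4 methyltransferase complexes, 9 of 10 acetyltransferases, 14 of 15 other histone methyltransferases and 5 of 8 other demethylases. The highest were Mbd2, a methyl-CpG reader of NuRD, at 119 and 107 (113 ± 8.28), the acetyltransferase gene Kat6b at 94.1 and 88.6 (91.4 ± 3.87) and Ep300 at 45.7 and 43.5 (44.6 ± 1.52). Ezh2 was called at Kat6b (2.14 and 2.30), Smyd2 (2.37 and 1.79) and Nsd2 (2.25 and 1.39), and the highest H3K27me3 was at Hr (2.50 and 2.25), Crebbp (2.16 and 2.23) and Smyd2 (2.45 and 1.91).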

How the data were processed

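Peaks of Ezh2, H3K27me3 and Runx1 were deposited as 6 lists, 1 per library, so replicates were not pooled. Among the tools in the submitters' processing notes are MACS2 2.0.10, Bowtie2 2.2.1, SAMtools and Picard, with mm10 as the build and no parameters. The deposited fold enrichment is a linear ratio by the authors' peak caller. Significance was deposited as -log10 of each peak's p-value and q-value. The deposited score is a rescaled -log10 value and was not used. Input libraries were not analysed here.

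Genes and starts came from RefSeq tables on GRCm38.p6. A gene was called where a window of 1 kb either side of an end held a peak of both replicates (overlap of at least 1 bp), and its fold is that of the strongest peak in each replicate, in the window with the higher mean. An ± is the SD over 2 replicates. Calls were tested on simulated peaks. Named genes were every member called for Ezh2 or H3K27me3, the 12 highest for Runx1, their paralogues and, of the related genes, the 3 highest per antibody. The other members' values complete the families. Members, lists and classes were chosen with earlier results of these data known. The second RUNX word and the split by CG content were added after the data were examined. No search for RUNX or ETS words was among the results planned beforehand. Alternatives were stricter peaks, other windows, listed starts, overlapping peaks, single replicates and other classes. Python 3.11.15, numpy 2.4.6 and pandas 2.3.3 were used.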

Additional observations from a re-analysis of the deposited data

How the results depend on the processing

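The Runx1 count of 47 members was within 1.5 times under every alternative except the 10000 strongest peaks of each list, which left 31 members (57.4%) against 22.4% of all genes. The single lists gave 47 each. The Ezh2 count of 2 was 0 with a q of at most 1e-05, 1 with the 10000 strongest peaks, 5 over the whole gene span, 4 of 43 with listed starts and between 4 and 6 with 1 replicate, where 4.58, 5.88, 31.5, 15.2 and 22.6 to 27.3% of all genes were called. The H3K27me3 count of 8 was 0 with a q of at most 0.01 and of at most 1e-05, 1 with the 10000 strongest peaks (Hdac11), 5 with a window of 500 bp and 4 of 43 with listed starts, where 3.02, 0.425, 5.62, 27.2 and 26% of all genes were called.

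The difference in Runx1 share between activating and repressing genes (9.07 points) was 13.2 with a q of at most 1e-05 and with a window of 500 bp, 8.82 with the 10000 strongest peaks, 10.8 with 2 kb, 8.33 over the span, 20 with listed starts, 4.9 with all Hdac and Sirt genes repressing and 12.5 without Kdm4 genes and Setd2. For Ezh2 (1.72 points) it turned to -2.45 with 2 kb, -0.735 over the span and -6.67 with listed starts, and single replicates gave -6.62 to 5.15. For H3K27me3 (0.98 points) it was 0 with a q of at most 0.01, at 1e-05 and without Kdm4 genes and Setd2, 4.31 with all Hdac and Sirt genes repressing, and turned to -4.17 with the 10000 strongest peaks, -0.735 with 500 bp, -3.19 with 2 kb and -6.67 with listed starts. The cause was not tested. Mean Runx1 folds that moved by over 1.5 times were Kdm4a (3.36, then 10.2 with 2 kb and 8.99 over the span), Hdac3 (18.2 with 2 kb), Sirt4 (3.91), Sirt7 (3.67), Kmt2d (3.20) and Kdm2b (26.8) with listed starts and, over the span, Kdm2b (26.8), Hdac7 (34.2), Sirt3 (17.9), Setd4 (12.6), Kdm5b (6.80), Kdm1a (5.96) and Hdac2 (4.68). No paired analysis was possible because the results come from no test. Depth is unknown, so a missing peak is not shown to be an absent one.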

Other observations

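Several enzyme genes carried groups of Runx1 regions inside the gene, away from both ends. Regions are merged peaks to which both replicates contributed. With those at gene ends included, the 54 members held 131 Runx1 regions in their spans. That was 3.43 per 100 kb against 2.83 over all protein-coding genes, while H3K27me3 (1.78 against 4.68) and Ezh2 (1.05 against 3.15) were sparser. The density of inner regions alone was not computed over all genes. Hdac4 had 11 regions in 266.9 kb, all more than 1 kb from its ends, the strongest at folds of 14.9 and 17.9 (16.4 ± 2.10, SD, n = 2). Kdm6b had 8 regions within 21.9 kb, of which 7 lay away from the ends. Setd1b had 7, of which 4 lay away from the ends, and Kdm2b and Hdac5 had 6 each, of which 5 did. The strongest inner region of Hdac5 had folds of 21.1 and 22.9 (22.0 ± 1.25).

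Some members had their strongest Runx1 inside the gene. Hdac7, whose start had Runx1 at 2.54 and 2.86, had an inner region on chromosome 15 (97816431 to 97817143) at 35.3 and 33.1 (34.2 ± 1.56), the highest of any member away from the ends. Hdac9, with no Runx1 at its ends or listed starts, had 9 inner regions, the strongest at 7.998 and 14.9 (11.4 ± 4.88). It spans 869.5 kb and also held 55 H3K27me3 and 28 Ezh2 regions. Spans of all protein-coding genes held 2.83 Runx1, 4.68 H3K27me3 and 3.15 Ezh2 regions per 100 kb. Sirt3 had an inner region at 14.4 and 21.5, above its start at 7.79 and 7.07, and Setd4 one at 12.4 and 12.8, above its start at 7.69 and 5.14.

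The word CCGGAAG or its reverse complement CTTCCGG, a core of ETS factor sites, was searched in the 300-base promoter windows as a contrast to the RUNX words. It was present in 24.6% of all promoters with a Runx1 summit of both replicates and 6.87% of those without one. Among member promoters it was in 5 of 30 with a summit (16.7%) and 4 of 29 without (13.8%). None of the 8 promoters chosen by Runx1 fold held it. These shares are descriptions, and a match is not a binding site.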
